A study of Mus musculus with 24 samples.

Results

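The late change of the oligodendrocyte (OL) translatome, the RNA bound to OL ribosomes, was measured from 3 OL libraries of 42 days post-injury (dpi 42) set against 3 OL libraries of dpi 10, out of 24 libraries in the series. Members were chosen by the day and the RNA kind (IP for OL, IN for total RNA) in the column names of the count table. OL-Ribotag mice carry a tamoxifen-inducible Cre under a promoter of myelinating cells and an HA-tagged allele of the ribosomal protein gene Rpl22. After induction the tagged ribosomes can be pulled down with anti-HA antibody together with the mRNA on them. All mice, the uninjured (naive) controls included, were induced. Mice of both injured groups were female and received a T9 contusion of 50 kdyn, at 10 to 12 weeks of age per the labels. Each library came from tissue of 2 pooled mice around the lesion, and total RNA of the same tissue was sequenced beside it. Mice of dpi 42 were older at collection than mice of dpi 10, so that time after SCI and age cannot be told apart. That promoter is also active in Schwann cells, which enter the contused cord, and the allele tags every cell that recombined.

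The values are raw read counts per gene. The 6 OL libraries held 30694911 to 32987841 counts on genes. Levels are given as CPM, counts relative to the library size after TMM scaling (trimmed mean of M values), for replicates 1, 2 and 3 in that order, and are not comparable between genes because they are not per length. Log2FC is the log2 fold change of dpi 42 over dpi 10, with q from the edgeR quasi-likelihood test after Benjamini-Hochberg adjustment (n = 3 per group). Genes are said to have risen or fallen at q under 0.05. Every test was repeated with 1 of the 6 OL libraries left out (leave-one-out fits).

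The title of OL library 1 of dpi 42 says total RNA, whereas its column name and description say OL, and 1 total RNA library of that day has the opposite conflict. The column name was followed. That library had 53482 CPM of the myelin gene Mbp and 56.2 CPM of the neuronal gene Snap25, against 12529 and 2449 CPM in the total RNA library with the conflict. Results that rest on library 1 of dpi 42 are given without it for many genes, but not for each. Among the called genes Maff, Tjp1, Ank3, Gpm6b, Elovl7 and Cox5b, q without it was 0.18, 0.12, 0.084, 0.073, 0.069 and 0.056. OL markers were high in all 6 OL libraries. Mbp, myelin basic protein, had 60468, 68566 and 69536 CPM and 53482, 58339.5 and 70022 CPM. Of the gene lists examined, that of astrocytes varied most between the 6 libraries. Gfap had 1339.5, 4284 and 1687 CPM on dpi 10 and 9632, 7551 and 1407 CPM on dpi 42. The 18 genes of an astrocyte list, none of them at 0, summed to 3919 to 10120 CPM on dpi 10 and 3881 to 19661 CPM on dpi 42, so the groups overlapped. Libraries 1 and 2 of dpi 42 were high and library 3 was low. The first principal component of the 6 libraries, with 32.8% of the variance, had scores of 89.2 and 50.7 for libraries 1 and 2 of dpi 42, and -37.2 for library 3, beside -46.4, -13.1 and -43.2 on dpi 10.

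OLs wrap axons in compact myelin, a membrane rich in cholesterol and galactolipids, and they supply axons with metabolites. After a contusion many OLs die within days, and surviving and newly formed OLs live on in tissue that holds macrophages, reactive astrocytes and scar-forming fibroblasts. Days 10 and 42 are usually taken as the subacute and the chronic stage. The pull-down is meant to hold the mRNA that the tagged cells hold for translation. The authors reported that some of its RNA appeared to come from other cells, among them microglia and macrophages. A change in an OL library can therefore also lie in carried-over RNA of untagged cells, which was not separated here. Fewer cells of a type and less RNA per cell cannot be told apart in bulk samples.

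Between dpi 10 and dpi 42 more genes fell than rose in the OL libraries. Of 17167 genes tested, 563 rose (3.28%) and 670 fell (3.9%). The counts of gene lists below are to be read beside these shares. With a Log2FC beyond 1, 83 rose (0.483%) and 209 fell (1.22%). In 55 of the 83 and 178 of the 209 all 3 libraries of one day lay beyond all 3 of the other. Genes named below for the smallest p past Log2FC 1, in all or among OL-enriched genes, were picked from these. Their days are therefore apart by choice. In 13 of the 83 and 87 of the 209 the lower day had at most 3 counts in every library. In the leave-one-out fits 10 of the 83 and 70 of the 209 kept their call in all 6. In a fit of the 12 OL libraries alone 2 of the 10 rises and 4 of the 10 falls picked by smallest p were called. In that fit 3 and 14 genes passed Log2FC 1. Without library 1 of dpi 42 the counts were 25 up and 128 down, without library 1 of dpi 10 there were 18 up, and without library 3 of dpi 42 there were 259 up and 433 down.

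In total RNA of the same tissue 10 genes rose (0.0583%) and 35 fell (0.204%) in the edgeR test, of which 0 (0%) and 13 (0.0757%) passed Log2FC 1, as did 0 and 28 with DESeq2. Without the threshold on q, 1779 genes there had an unadjusted p under 0.05, against 3965 in OL. The genes that passed Log2FC 1 in OL had a median Log2FC in total RNA of 0.29 (83 rises) and -0.33 (209 falls), with a Log2FC of the same sign in 66 and 152 of them. The genes that rose in OL were short, with a median length of 1573 bases and 52.7% GC, those that fell were long, with 4891 bases and 46.3% GC, and all tested genes had 3220 bases and 50.0%. A fit with an offset for length and GC content gave 34 rises and 121 falls past Log2FC 1.

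The calls were also counted by OL enrichment. Of the 2137 genes that were enriched in OL over total RNA in naive tissue (log2 ratio over 1, q under 0.05), 31 rose (1.45%) and 148 fell (6.93%), and their median Log2FC was -0.11. Without library 1 of dpi 42 these counts were 9 and 48, with the offset for length and GC content 8 and 48, and in the fit of OL libraries alone 1 and 10. Of the 4068 genes depleted in OL, 135 rose (3.32%) and 169 fell (4.15%), near the 3.28% and 3.9% of all tested genes. Of the naive OL libraries, library 3 stood apart, with 82.4 CPM of the Schwann cell gene Prx against 0.0840 and 0.169 CPM in the other two, and 2713 CPM of Gfap against 668 and 495 CPM, and the enrichment calls were not repeated without it. The median over all tested genes was 0.

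**Figure D1:**
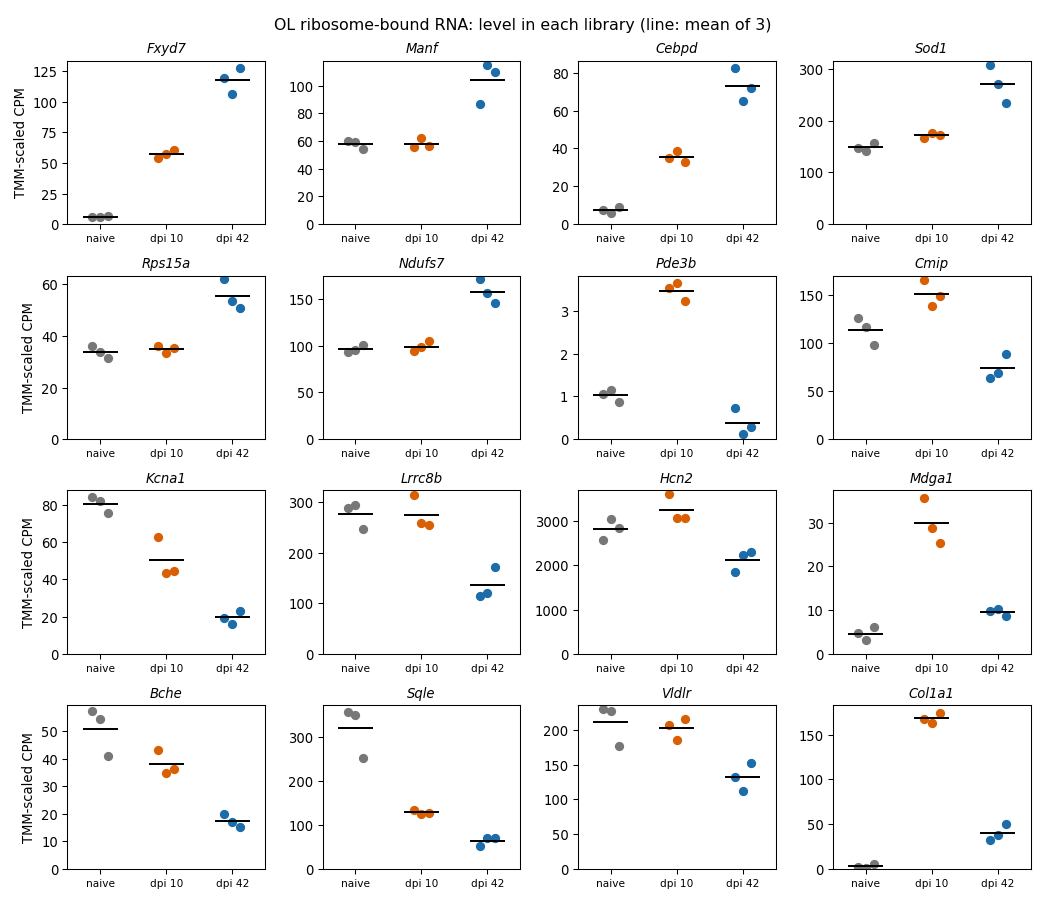
CPM (TMM-scaled, linear axes from 0) of 16 genes in the 3 naive, 3 dpi 10 and 3 dpi 42 OL libraries, where each point is a library and each line the mean of 3. Kcna1, Cmip, Lrrc8b and Mdga1 had all 3 dpi 42 libraries below all 3 dpi 10 libraries, and Fxyd7, Manf and Sod1 had them above.

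Pde3b, Cmip, Kcna1 and Lrrc8b, which had some of the smallest p of all falls past Log2FC 1, code for a phosphodiesterase, a signalling adapter and channel subunits. Cmip (chromosome 8, 117257064 to 117459430, plus strand, GRCm38), which codes for c-Maf inducing protein, had 165, 139 and 149 CPM on dpi 10 and 63.8, 69.3 and 88.2 CPM on dpi 42 (Log2FC = -1.03 ± 0.13 (SE), q = 0.00045), and naive OLs had 126, 117 and 97.8 CPM. Pde3b (chromosome 7, 114415281 to 114539251, plus strand), which degrades cAMP and cGMP, had 3.53, 3.65 and 3.24 CPM and then 0.734, 0.112 and 0.274 CPM (Log2FC = -3.18 ± 0.33 (SE), q = 6.4e-05). In both genes every dpi 42 library lay below every dpi 10 library and below every naive library. Cmip in total RNA had a Log2FC of -0.01 and Pde3b of -0.70, and both differed between OL and total RNA (q = 0.037 and 0.028 for the difference). The difference passed in 2 and 5 of 12 leave-one-out fits and did not pass when the libraries were paired by tissue (q = 0.074 for Cmip and 0.10 for Pde3b). Pde3b is an OL-depleted mRNA, with a log2 ratio of OL over total RNA of -3.50 in naive tissue. Both falls in OL kept q under 0.05 in all 6 leave-one-out fits, at most 0.0045 and 0.00029.

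Further channel genes were among the falls. Kcna1 (chromosome 6, 126640397 to 126646384, minus strand), the voltage-gated potassium channel subunit Kv1.1, had 62.9, 43.5 and 44.3 CPM on dpi 10 and 19.5, 16.3 and 23 CPM on dpi 42 (Log2FC = -1.36 ± 0.20 (SE), q = 0.0012), against 75.7 to 84.3 CPM in naive OLs. Lrrc8b (chromosome 5, 105415775 to 105490074, plus strand), a subunit of volume-regulated anion channels, had 312, 258 and 253 CPM and then 115, 119.8 and 172 CPM (Log2FC = -1.02 ± 0.15 (SE), q = 0.0012). Hcn2 (chromosome 10, 79716634 to 79736108, plus strand), a hyperpolarization-activated cation channel of OLs, had 3604, 3077 and 3066 CPM and then 1858, 2234 and 2293 CPM (Log2FC = -0.61 ± 0.12 (SE), q = 0.0064). All 3 genes had lower values in every dpi 42 library than in any dpi 10 or naive library, and library 3 of dpi 42 was the highest of its day in each. Lrrc8b and Hcn2 are OL-enriched (naive log2 ratio 1.58 and 2.19) and Kcna1 is OL-depleted (-1.73). The highest q over the leave-one-out fits was 0.0082, 0.011 and 0.03. In total RNA Kcna1 had a Log2FC of 0.15, and its OL change differed from that (-1.50 ± 0.27 on the log2 scale, q = 0.037, and q = 0.0058 with OL and total RNA paired by tissue, though it passed in 4 of 12 leave-one-out fits), whereas the difference was -0.55 (q = 0.3) for Lrrc8b and -0.64 (q = 0.15) for Hcn2.

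Genes of membrane contacts and endosomes were named after their values were seen, since their change differed from total RNA in the unpaired test. Eea1, a tether of early endosomes, had 45.6, 40.8 and 42.9 CPM on dpi 10 and 19.9, 19.4 and 26.9 CPM on dpi 42 (Log2FC = -0.97 ± 0.12 (SE), q = 0.00045). Esyt1, which holds the endoplasmic reticulum (ER) close to the plasma membrane, had 24, 21.3 and 21.8 CPM and then 12.5, 13.6 and 12.8 CPM (Log2FC = -0.78 ± 0.11 (SE), q = 0.00088). Jph3, a junctophilin of the same kind of contact, had 33.1, 24.8 and 32.6 CPM and then 16.7, 19.9 and 18.6 CPM (Log2FC = -0.71 ± 0.15 (SE), q = 0.0072). Each had its 3 dpi 42 libraries below its 3 dpi 10 libraries, and in each the OL change differed from that of total RNA (differences -0.92, -0.84 and -1.17, q = 0.037, 0.037 and 0.037). Eea1 went from 55.7 to 63.3 CPM in naive OLs through dpi 10 to dpi 42 without an overlap between groups. All 3 falls in OL kept their call in the 6 fits that left out an OL library, whereas the difference from total RNA passed in 3, 5 and 5 of 12 fits that left out an OL or a total RNA library, and in none of the 3 genes when OL and total RNA were paired by tissue (q = 0.10 for Eea1, 0.12 for Esyt1 and 0.10 for Jph3).

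Several falls were of genes with adhesive or secreted products. Mdga1, a GPI-anchored adhesion protein, had 35.7, 28.7 and 25.5 CPM on dpi 10 and 9.89, 10.3 and 8.76 CPM on dpi 42 (Log2FC = -1.63 ± 0.26 (SE), q = 0.0022), above the 3.13 to 6.08 CPM of naive OLs on both days. Klk8, a secreted serine protease (neuropsin) that was at 0 to 0.798 CPM in naive OLs, had 140.2, 114 and 107 CPM and then 40.6, 33.3 and 46.9 CPM (Log2FC = -1.58 ± 0.34 (SE), q = 0.0086). Bche, which codes for butyrylcholinesterase and is OL-enriched (naive log2 ratio 2.05), had 43.2, 34.8 and 36.5 CPM and then 19.96, 17.2 and 15.1 CPM (Log2FC = -1.13 ± 0.21 (SE), q = 0.0042). The groups of dpi 10 and dpi 42 did not overlap in any of the 3, as the choice of these genes required. Klk8 and Mdga1 thus remained above their naive level on dpi 42 (log2 of dpi 42 over naive 6.46, q = 1e-08, and 1.05, q = 0.0045), whereas Bche was below it (-1.55, q = 1.2e-05). Reads of Klk8 may be shared with its close relative Klk9, which had 3.23 to 5.28 CPM on dpi 10 and 3.6 to 5.82 CPM on dpi 42. Faxc, a gene linked to axon connections, had 19.1, 12.4 and 15 CPM and then 6.61, 7.13 and 4.93 CPM (Log2FC = -1.32 ± 0.20 (SE), q = 0.0017). All 4 kept q under 0.05 in every leave-one-out fit, at most 0.041 for Klk8. In the fit of OL libraries alone Mdga1 and Bche were called, and Klk8 and Faxc were not.

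Among OL-enriched genes with a Log2FC beyond 1, 9 fell and 2 rose with the groups apart, fewer than the 10 sought in each direction. The rises were Cebpd and Dnph1, described below, and the falls included Lrrc8b, Mdga1, Bche, Klk8, Syne3, Sbk3, Nxf2 and the uncharacterised 9930012K11Rik. Among these is Syne3, which codes for nesprin-3 of the nuclear envelope, with 22.1, 22.9 and 21.7 CPM and then 7.59, 7.73 and 12.2 CPM (Log2FC = -1.28 ± 0.26 (SE), q = 0.0065). Sbk3, a kinase gene, had 7.11, 8.6 and 8.94 CPM and then 3.01, 1.38 and 2.23 CPM (Log2FC = -1.89 ± 0.50 (SE), q = 0.026). Syne3 kept its call in all leave-one-out fits, with q of at most 0.036, whereas Sbk3 reached 0.093 without library 2 of dpi 42. Nxf2, an RNA export factor, had 0 counts in all dpi 42 libraries and 0.777, 1.14 and 1.1 CPM on dpi 10, at least 9.04-fold lower with a floor of 3 counts per library, but q reached 0.12 without library 1 of dpi 42. Tmod1, which caps actin filaments, fell from 463, 395 and 399 CPM to 277, 227 and 268 CPM (Log2FC = -0.70 ± 0.11 (SE), q = 0.0017). Ndst1, an enzyme of heparan sulfate sulfation, fell from 359.7, 306 and 289.7 CPM to 187, 176 and 202 CPM (Log2FC = -0.76 ± 0.13 (SE), q = 0.0026). Both of these lie under the limit of Log2FC 1 and were called in every leave-one-out fit.

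Falls also included genes near the detection limit. Gpr165, Pcdh18 and Trhde had 0.0761 to 0.621 CPM in the dpi 10 libraries, similar values in naive OLs, and no count in any dpi 42 library. They were at least 3.57-fold, 2.64-fold and 3.45-fold lower on dpi 42 (q = 0.0013, 0.0014 and 0.0035). Cd36, a scavenger receptor of macrophages and vessels, had 1.86, 2.89 and 1.48 CPM on dpi 10 and no count on dpi 42 (at least 18.7-fold lower, q = 0.0013). Adam8, a membrane protease of myeloid cells, had 4.7, 4.79 and 6.01 CPM and then 0.664, 0.485 and 0.822 CPM (Log2FC = -2.97 ± 0.39 (SE), q = 0.00055), and Tm6sf1, a lysosomal membrane protein, had 3.07, 3.2 and 4.68 CPM and then 0.664, 1.16 and 0.704 CPM (Log2FC = -2.11 ± 0.25 (SE), q = 0.00031). All 6 genes were OL-depleted in naive tissue, with log2 ratios of OL over total RNA of -5.62 (Cd36) to -3.29 (Tm6sf1).

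Of the metabolic lists examined, cholesterol synthesis had the most falls. Cells make cholesterol from acetyl-CoA through the mevalonate pathway and the sterol ring reactions, under the control of the transcription factor SREBP2, and OLs depend on this synthesis for myelin. Of 20 genes of the pathway tested, 9 fell and 0 rose, and the median Log2FC was -0.56 (0 over all genes). In 13 of the 20 genes all dpi 42 libraries lay below all dpi 10 libraries and in 1 above. The share of all tested genes with the days apart is not given here, so these counts have no background. The count of falls was 3 without library 1 of dpi 42 and 12 without library 3, 3 with the offset for length and GC content, and 1 in the fit of OL libraries alone. In total RNA the median was -0.03 and no gene of the list had q under 0.05. The summed level of the 20 genes was 2468 to 2532 CPM on dpi 10 and 1370 to 1925 CPM on dpi 42. In all 9 every dpi 10 library in turn lay below every naive library. This count too has no share over all tested genes beside it, and it covers only the members that fell by dpi 42.

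To show what these genes share in sequence, the promoters of Hmgcs1, Msmo1 and Sc5d are printed, from 250 bases before to 50 bases after the start (RefSeq, GRCm38.p6). They lie at chr13:119690101-119690400 (plus strand), chr8:64733529-64733828 (minus strand) and chr9:42264251-42264550 (minus strand). Capitals mark matches, on either strand, to CCAAT (bound by NF-Y), to GGGCGG (bound by Sp1) and to TCACNCCAC (a sterol regulatory element), each read 5′ to 3′ on the gene's strand.
Hmgcs1: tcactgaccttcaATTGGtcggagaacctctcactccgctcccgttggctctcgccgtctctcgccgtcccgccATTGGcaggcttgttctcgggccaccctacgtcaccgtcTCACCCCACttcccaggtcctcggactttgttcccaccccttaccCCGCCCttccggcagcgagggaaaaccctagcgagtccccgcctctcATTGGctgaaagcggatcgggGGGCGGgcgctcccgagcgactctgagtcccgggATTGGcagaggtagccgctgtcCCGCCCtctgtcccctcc
Msmo1: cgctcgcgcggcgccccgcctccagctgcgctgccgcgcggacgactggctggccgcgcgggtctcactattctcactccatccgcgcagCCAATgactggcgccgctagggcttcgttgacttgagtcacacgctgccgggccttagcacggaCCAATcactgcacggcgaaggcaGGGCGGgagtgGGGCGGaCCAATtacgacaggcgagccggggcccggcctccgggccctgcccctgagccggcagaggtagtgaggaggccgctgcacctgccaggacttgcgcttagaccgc
Sc5d: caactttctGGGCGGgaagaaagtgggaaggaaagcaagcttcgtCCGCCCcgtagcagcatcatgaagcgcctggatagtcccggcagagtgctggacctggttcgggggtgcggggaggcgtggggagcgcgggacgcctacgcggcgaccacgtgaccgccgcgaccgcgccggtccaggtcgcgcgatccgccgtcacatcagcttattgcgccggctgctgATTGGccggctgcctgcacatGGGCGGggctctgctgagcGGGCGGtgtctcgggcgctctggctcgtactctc
Of 20 genes, 15 had a promoter in the table, with 18 starts among them. CCAAT was found in 14 of the 18 promoters (77.8%) against 37.4% of all 32851 promoters of the same length, and GGGCGG in 15 (83.3%) against 35.7%. TCACNCCAC was found in 1 (5.56%) against 1.24%. TGATGNAAN, a separate sequence that was also searched and is not a sterol regulatory element, was found in 1 (5.56%) against 3.95%. These are matches of letters in a window and were not tested as binding sites.

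Hmgcs1 and Sqle act before the sterol ring is closed, and both fell. Hmgcs1, which makes HMG-CoA, had 677, 731 and 639 CPM on dpi 10 and 317, 449 and 449.8 CPM on dpi 42 (Log2FC = -0.75 ± 0.18 (SE), q = 0.016), against 1540.3 to 2001 CPM in naive OLs. Sqle (chromosome 15, 59315077 to 59331192, plus strand), the epoxidase that commits squalene to sterols, had 133, 126 and 127 CPM and then 51.7, 71.2 and 70.2 CPM (Log2FC = -0.997 ± 0.18 (SE), q = 0.0039), against 253 to 356 CPM in naive OLs. Both stepped down from naive to dpi 10 and again to dpi 42 with no overlap, and library 1 of dpi 42 was the lowest. Without that library q was 0.072 for Hmgcs1 and 0.023 for Sqle.

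Further down, Lss, which closes the first sterol ring system, fell (Log2FC = -0.46, q = 0.042), and so did Msmo1 (Log2FC = -0.72, q = 0.015), Hsd17b7 (Log2FC = -0.82, q = 0.026), Sc5d (Log2FC = -0.51, q = 0.042) and Dhcr7 (Log2FC = -0.60, q = 0.008), which act on the sterol ring. Dhcr7, which reduces the ring at the end of the pathway, had 154, 150.0 and 167 CPM on dpi 10 and 88, 111 and 112 CPM on dpi 42. Msmo1 had 164, 176 and 177 CPM and then 69.6, 110.4 and 133 CPM. Only Dhcr7 of these 5 kept its call in all leave-one-out fits (q of at most 0.035), and without library 1 of dpi 42 q was 0.056 for Msmo1, 0.11 for Hsd17b7 and 0.16 for Sc5d, while Lss had 0.13 without library 1 of dpi 10. Cyp51, Nsdhl, Tm7sf2 and Idi1 had Log2FC of -0.41, -0.70, -0.95 and -0.72 and did not pass (q = 0.057, 0.056, 0.056 and 0.15). For Mvd, Fdps, Acat2, Ebp, Fdft1, Mvk and Pmvk the Log2FC lay between -0.23 (Mvk) and 0.32 (Pmvk), none with q under 0.05.

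**Figure D2:**
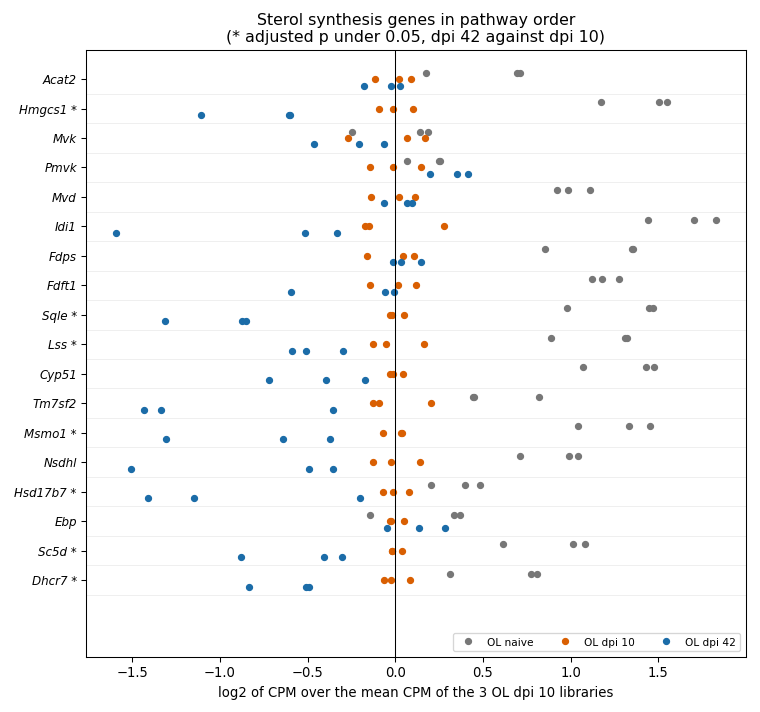
Log2 of CPM over the dpi 10 mean for 18 genes of sterol synthesis in the naive, dpi 10 and dpi 42 OL libraries, where each point is a library and a star marks q under 0.05 for dpi 42 against dpi 10. Naive libraries lay highest for most genes, and the lowest dpi 42 point of Hmgcs1 and Sqle was library 1.

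Of 12 genes tested for the control of SREBP2 and cholesterol uptake or export 1 fell and 0 rose (median -0.26). Vldlr, a receptor of lipoproteins, fell from 207, 185 and 215 CPM to 132, 112 and 152 CPM (Log2FC = -0.61 ± 0.13 (SE), q = 0.0082). Of 20 genes of myelin lipid synthesis 4 fell and 1 rose (median -0.24). Elovl6 (Log2FC = -0.61, q = 0.0055) and Elovl7 (Log2FC = -0.65, q = 0.017), which lengthen fatty acids, Cers2 (Log2FC = -0.55, q = 0.011), which makes ceramides with very long chains, and Ugt8a (Log2FC = -0.996, q = 0.01), which makes galactosylceramide, were those that fell. Ugt8a had 1228, 1209 and 1133 CPM on dpi 10 and 437, 603 and 750.2 CPM on dpi 42, again with library 1 lowest, and q was 0.056 without it. The rise was of Srebf1, the regulator of fatty acid synthesis, with 239, 262 and 206 CPM and then 448, 327 and 302 CPM (Log2FC = 0.61 ± 0.18 (SE), q = 0.041), and q was 0.28 without library 1 of dpi 42. The falls in this list numbered 2 without library 1 of dpi 42 and 9 without library 3.

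Some genes of the myelin sheath itself fell, beside 3.9% of all tested genes. Of 19 genes of compact myelin and the OL surface 3 fell and 0 rose (median -0.17, with 1 fall without library 1 of dpi 42 and 9 without library 3, and 0 falls and a median of -0.31 with the offset for length and GC content). Tspan2, a tetraspanin of myelin, had 1535, 1312 and 1218 CPM and then 846, 901 and 1002 CPM (Log2FC = -0.56 ± 0.12 (SE), q = 0.0081), and Gpm6b, a membrane glycoprotein, fell as well (Log2FC = -0.41, q = 0.017). The groups did not overlap for Tspan2. Mbp (Log2FC = -0.13 ± 0.12), Mog (-0.25 ± 0.10) and Mag (-0.22 ± 0.12) did not pass (q = 0.6, 0.16 and 0.26). Of 14 transcription factors of the OL lineage none had q under 0.05 (median -0.16, with 4 falls without library 3 of dpi 42).

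Adhesion and cytoskeleton genes held falls as well. Of 20 genes of the paranode and of adhesion 3 fell, which were Cadm2 (54.7, 52.2 and 44.3 CPM and then 25.1, 25.5 and 29.3 CPM, Log2FC = -0.92, q = 0.0039), Ank3 (Log2FC = -0.50, q = 0.02) and Tjp1 (Log2FC = -0.59, q = 0.028), with 1 fall without library 1 of dpi 10, 8 without library 3 of dpi 42 and 0 with the offset for length and GC content. Cadm2 is an adhesion protein, Ank3 codes for ankyrin-G and Tjp1 for a tight junction scaffold. Of 30 genes of actin, myosin and junctions 6 fell (median -0.20, with 1 without library 1 of dpi 10, 13 without library 3 of dpi 42 and 1 with the offset). Gsn, the actin-severing protein gelsolin and an OL-enriched mRNA (naive log2 ratio 3.64), had 3622, 3186 and 2980.5 CPM and then 1917, 2052 and 2387 CPM (Log2FC = -0.62 ± 0.13 (SE), q = 0.0078), with no overlap between the groups, and was the 1 member that fell in every leave-one-out fit. Rock1 (Log2FC = -0.57, q = 0.013), Clmn (Log2FC = -0.49, q = 0.027), Wasf2 (Log2FC = -0.51, q = 0.027), Arpc1b (Log2FC = -0.50, q = 0.048) and Fnbp1 (Log2FC = -0.42, q = 0.015) were the others. Of 19 markers of OPCs and newly formed OLs Enpp6, a choline phosphodiesterase, fell (Log2FC = -0.65, q = 0.022), and q was 0.085 without library 1 of dpi 42. With 1 fall this list lay near the 3.9% of all tested genes that fell. Of 19 genes of mature OL subtypes 2 fell, Gsn again and Il33, an alarmin of OLs, with 1595, 1273 and 1159 CPM and then 886, 772 and 817 CPM (Log2FC = -0.70 ± 0.17 (SE), q = 0.016), and q was 0.065 without library 1 of dpi 10.

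The rise with the smallest p past Log2FC 1 was that of Fxyd7 (chromosome 7, 31042513 to 31051467, minus strand), a regulatory subunit of the sodium pump. It had 5.88, 6.18 and 6.43 CPM in naive OLs, 54.3, 57.3 and 60.6 CPM on dpi 10 and 119.8, 106 and 128 CPM on dpi 42 (Log2FC = 1.04 ± 0.13 (SE), q = 0.00045). The 3 groups did not overlap, so that a gene already higher on dpi 10 than in naive OLs (log2 3.22, q = 5.1e-12) was higher again. The q was at most 0.0081 in the leave-one-out fits and 0.06 with the offset for length and GC content, where its Log2FC was 0.57. In total RNA the Log2FC was 0.56 ± 0.13 (q = 0.076), and the OL change did not pass the test of difference (0.47, q = 0.31).

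Further rises with the groups apart included Manf, Sod1 and Fkbp2, of which Sod1 and Fkbp2 were named after their values were seen. Manf, a factor of the ER that is released under ER stress, had 55.6, 62.4 and 56.3 CPM on dpi 10 and 87, 115 and 110.0 CPM on dpi 42 (Log2FC = 0.84 ± 0.11 (SE), q = 0.00083). Sod1, which removes superoxide, had 167, 176 and 171 CPM and then 307, 271 and 235 CPM (Log2FC = 0.66 ± 0.10 (SE), q = 0.0014). Fkbp2, a prolyl isomerase of the ER, had 57.3, 62.5 and 56.4 CPM and then 98.1, 98.8 and 92.6 CPM (Log2FC = 0.72 ± 0.11 (SE), q = 0.0014). The dpi 10 values of Manf and Fkbp2 overlapped those of naive OLs (54.2 to 59.8 and 53.3 to 60.5 CPM), and all dpi 42 values were above these. These 3 genes kept q under 0.05 in all leave-one-out fits, at most 0.014. Cebpd, a transcription factor of the acute-phase response and OL-enriched in naive tissue (log2 ratio 1.02), had 35, 38.7 and 33 CPM and then 82.6, 65 and 72 CPM (Log2FC = 1.04 ± 0.25 (SE), q = 0.017), and q was 0.085 without library 1 of dpi 42. Dnph1, an OL-enriched nucleotide hydrolase, had 4.66, 4.6 and 4.34 CPM and then 11.2, 10.6 and 9.47 CPM (Log2FC = 1.20 ± 0.34 (SE), q = 0.038), and q was 0.12 without library 1 of dpi 10.

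Smim11, which codes for a small membrane protein, had 9.79, 8.03 and 8.3 CPM on dpi 10 and 20.3, 20.3 and 16.9 CPM on dpi 42 (Log2FC = 1.14 ± 0.19 (SE), q = 0.0031). Gal, the neuropeptide galanin, had no count on dpi 10 and 0.664, 0.373 and 0.783 CPM on dpi 42, at least 5.28-fold higher (q = 0.0014). Cck, the neuropeptide cholecystokinin, had 0.544, 0.533 and 0.723 CPM and then 3.01, 4.63 and 1.8 CPM (Log2FC = 2.38 ± 0.43 (SE), q = 0.0039). The groups were apart in all 3, as the choice of these genes required, and both neuropeptides are OL-depleted (naive log2 ratio -5.32 and -6.66). Lysmd2 (Log2FC = 1.15, q = 0.0035), Romo1 (Log2FC = 1.06, q = 0.0037), a mitochondrial membrane protein, Fuom (Log2FC = 1.36, q = 0.0039), a fucose mutarotase, and Avpi1 (Log2FC = 1.57, q = 0.0056) also rose with their libraries apart. In Lysmd2, Romo1 and Avpi1 library 3 of dpi 42 was the lowest of its day, for example 16.6, 16.6 and 8.14 CPM in Avpi1.

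In some genes that rose, the same libraries were high as in Gfap. Ccn5, a secreted matrix-associated protein, had 4.58, 11.9 and 4.42 CPM on dpi 10 and 128, 80.2 and 12.6 CPM on dpi 42 (Log2FC = 3.40 ± 0.67 (SE), q = 0.0061), S100a6, a calcium-binding protein, had 116, 168 and 119.9 CPM and then 529, 425 and 174 CPM (Log2FC = 1.48 ± 0.31 (SE), q = 0.0078), and Hspb1, a small heat shock protein, had 20.4, 58.9 and 18.6 CPM and then 216, 176 and 30.5 CPM (Log2FC = 2.11 ± 0.59 (SE), q = 0.035). In each, libraries 1 and 2 of dpi 42 and library 2 of dpi 10 were the high ones of their day, as in Gfap. With the mean level of the 18 astrocyte genes as a covariate the Log2FC was 2.19 (q = 0.0031), 1.05 (q = 0.0027) and 1.13 (q = 0.0092), in an alternative chosen after seeing the data. Lcn2, an acute-phase lipocalin, had the same high libraries, with 4.78, 15 and 6.43 CPM and then 74.8, 69.7 and 20.1 CPM (Log2FC = 2.65, q = 0.038). Without library 1 of dpi 42 the q of S100a6 was 0.058 and that of Hspb1 0.16, and without library 1 of dpi 10 that of Lcn2 was 0.17. For Fxyd7 the covariate gave 1.11 (q = 9.3e-05) and for Kcna1 -1.31 (q = 0.00088).

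**Figure D3:**
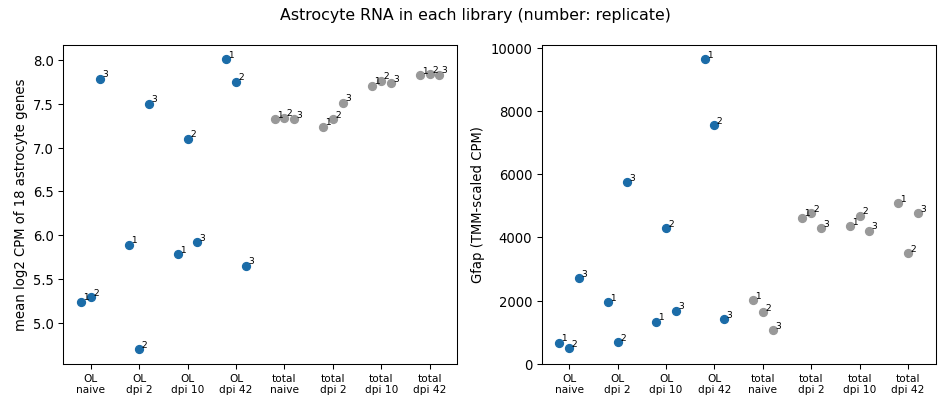
Mean log2 CPM of 18 astrocyte genes (left) and Gfap CPM on a linear axis (right) in each of the 24 libraries, by day and RNA kind, where each point is a library. Numbers beside the points give the replicate. Among OL libraries, 1 and 2 of dpi 42 were high and library 3 lay with the lower dpi 10 libraries, with Gfap at 9632, 7551 and 1407 CPM on dpi 42, and naive OL library 3 was the highest of its group.

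Of the astrocyte list itself, all 18 genes had a Log2FC above 0 (median 1.01) and 1 rose, which was Lcn2, a gene of reactive astrocytes that myeloid cells also make. Gfap had a Log2FC of 1.35 ± 0.68 and Aqp4, the water channel, of 0.26 ± 0.73 (q = 0.24 and 0.93). In total RNA the median of the list was 0.14.

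Of the lists examined, those of the ribosome and of mitochondria held the most rises. Ribosomal proteins build the small and the large subunit, and respiratory chain subunits carry electrons in the inner mitochondrial membrane. Of 78 cytosolic ribosomal protein genes tested 59 rose and 0 fell (median Log2FC 0.45), and in 71 of them all dpi 42 libraries lay above all dpi 10 libraries. The sum of the 78 genes was 8498 to 8973 CPM on dpi 10 and 11330 to 11999 CPM on dpi 42. Of 59 respiratory chain genes 36 rose and 0 fell (median 0.46, 42 apart), of 16 genes of ATP synthase 6 rose (median 0.30), and of 48 mitochondrial ribosomal protein genes 17 rose (median 0.33). The counts of genes with the days apart have no share over all tested genes beside them. Between 2 and 7 of the ATP synthase genes and between 2 and 18 of the mitochondrial ribosomal genes rose when 1 library was left out, 3 and 6 with the offset for length and GC content, and 0 and 0 in the fit of OL libraries alone. In total RNA the medians were -0.01 for the cytosolic ribosome and 0.24 for the respiratory chain, with 0 and 1 rises.

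These are short genes, with a median length of 1077 bases for the cytosolic ribosome and 1005 bases for the respiratory chain against 3220 bases over all tested genes. With the offset for length and GC content 6 of the 78 and 3 of the 59 rose, with medians of 0.08 and 0.13. The rises ranged from 24 to 49 and from 9 to 41 when 1 library was left out (lowest without library 1 or 2 of dpi 10 or library 2 of dpi 42 for the ribosome and without library 1 of dpi 42 for the respiratory chain), and were 14 and 4 in the fit of OL libraries alone. Rps15a, of the small subunit, had 36.1, 33.5 and 35.4 CPM on dpi 10 and 61.9, 53.6 and 50.9 CPM on dpi 42 (Log2FC = 0.66 ± 0.10 (SE), q = 0.0017), and Rpl8, of the large subunit, had 286, 283 and 282 CPM and then 396, 415 and 417 CPM (Log2FC = 0.53 ± 0.08 (SE), q = 0.0012). Ndufs7, a subunit of complex I, had 94.1, 98.4 and 105 CPM and then 171, 156 and 146 CPM (Log2FC = 0.67 ± 0.11 (SE), q = 0.0017). The groups did not overlap in any of the 3, and dpi 10 values lay close to naive OLs (31.3 to 36.3, 272 to 278 and 93.2 to 101 CPM). With the offset the Log2FC was 0.81 (q = 0.002) for Rps15a, 0.15 (q = 0.41) for Rpl8 and 0.27 (q = 0.15) for Ndufs7. Cox6a1 and Cox5b, subunits of complex IV, rose by 0.59 and 0.60 on the log2 scale (q = 0.0039 and 0.0086). Ribosomal protein genes share reads with processed pseudogenes, so single values among them are uncertain.

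Of lists for protein quality and stress, 3 of 20 ER chaperones rose and 0 fell (median 0.31, 1 rise without library 1 of dpi 10 and 7 without library 1 of dpi 42). Besides Manf these were Pdia6 (129.7, 187 and 130.4 CPM and then 163, 239 and 298 CPM, Log2FC = 0.65, q = 0.042), a disulfide isomerase, and Creld2 (Log2FC = 0.66, q = 0.015). Of 16 heat shock genes 5 rose (median 0.35), namely Hspb1, Cryab, Hspa1a (Log2FC = 1.97, q = 0.019), Hspd1 (Log2FC = 0.41, q = 0.012) and Hspe1. Hspe1, the mitochondrial co-chaperone, had 34.8, 39.5 and 35.5 CPM and then 46.8, 63 and 58.4 CPM (Log2FC = 0.62 ± 0.12 (SE), q = 0.005) and kept its call throughout the leave-one-out fits. Cryab, a small chaperone abundant in OLs, had 1845, 2206 and 2157 CPM and then 2599.6, 3053 and 3262 CPM (Log2FC = 0.52 ± 0.15 (SE), q = 0.037), and lost its call in every leave-one-out fit. Of 23 genes of the ATF4 response Atf5 (63.2, 80.8 and 61.2 CPM and then 110.1, 114 and 105 CPM, Log2FC = 0.68, q = 0.0082), Nupr1 (Log2FC = 1.56, q = 0.031) and Phgdh (Log2FC = 0.33, q = 0.035) rose and Vldlr fell. Of 24 genes of glycolysis and lactate Pfkl rose (Log2FC = 0.96, q = 0.021), and of 20 immediate early genes Maff rose (Log2FC = 1.39, q = 0.038). With 1 rise each, both lists lay near the 3.28% of all tested genes that rose. Of all these rises those of Manf and Hspe1 were called in all 6 leave-one-out fits, and q reached 0.24 for Pdia6, 0.11 for Pfkl and 0.16 for Nupr1 without library 1 of dpi 10.

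**Figure D4:**
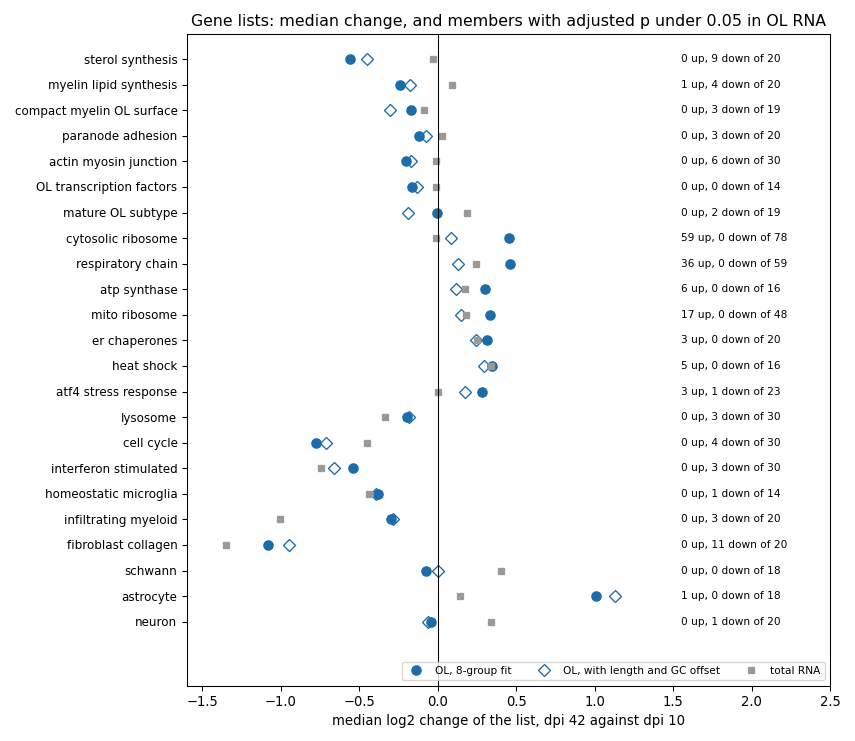
Median Log2FC of 23 gene lists in OL (filled circle), in OL with an offset for length and GC content (open diamond) and in total RNA (grey square), with the number of members that rose and fell. Cytosolic ribosome and respiratory chain genes lay near 0.45 in OL and near 0.1 with the offset, and sterol synthesis and collagen genes lay below 0 in OL either way.

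Collagens and other matrix genes, which fibroblasts and perivascular cells of the scar make in quantity, had the lowest median of the lists examined in OL and in total RNA. Of 20 such genes 11 fell and 0 rose in OL (median -1.08), and 5 fell in total RNA (median -1.35), of which 0 passed without library 2 of dpi 10 or library 2 of dpi 42 of total RNA. Col1a1 (chromosome 11, 94936224 to 94953042, plus strand), the main chain of type I collagen, had 168, 163 and 174 CPM on dpi 10 and 32.5, 37.7 and 49.96 CPM on dpi 42 (Log2FC = -2.07 ± 0.34 (SE), q = 0.0022), against 1.35 to 5.66 CPM in naive OLs. Col5a2 had 25.7, 22.3 and 20.2 CPM and then 6.78, 6.12 and 6.73 CPM (Log2FC = -1.80 ± 0.30 (SE), q = 0.0024), and Postn, a matrix protein of scars, had 35.8, 33.2 and 24 CPM and then 5, 5.97 and 10.3 CPM (Log2FC = -2.13 ± 0.41 (SE), q = 0.0056). The groups did not overlap in any of these, and Col1a1 and Col5a2 stood above their naive range on dpi 42 as well. Col18a1 (Log2FC = -1.90, q = 0.0039) and Col6a1 (Log2FC = -1.31, q = 0.0076) completed the 5 that fell in all leave-one-out fits. Col3a1 (Log2FC = -2.12, q = 0.021), Col8a1 (Log2FC = -2.13, q = 0.03), Col15a1 (Log2FC = -1.13, q = 0.032), Col6a3 (Log2FC = -1.03, q = 0.029), Col1a2 (Log2FC = -0.74, q = 0.043) and Lum (Log2FC = -2.03, q = 0.04998) did not keep their call in some of them, and 6 genes fell with the length and GC offset, 5 without library 1 of dpi 10 and 12 without library 3 of dpi 42. In naive tissue the list had a median log2 ratio of OL over total RNA of -1.16, whereas Postn was OL-enriched there (log2 ratio over 1, q under 0.05). The number of members that were OL-depleted by that limit on q is not given here.

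Myeloid genes gave some calls, beside 3.9% of all tested genes that fell. Of 20 genes of infiltrating myeloid cells Arg1, S100a9 and F13a1 (Log2FC = -2.56, q = 0.035) fell (median -0.30). F13a1 and Arg1 kept their call in 2 and 3 of 6 leave-one-out fits (q of 0.10 and 0.060 without library 1 of dpi 42). Arg1, an arginase of macrophages, had 1.09, 1.37 and 0 CPM on dpi 10 and no count on dpi 42. Its dpi 10 mean was 7.35 times the floor of 3 counts, which is no bound since 1 dpi 10 library had no count either. S100a9, of neutrophils, had 0.272, 0.228 and 2.06 CPM and then none. Its dpi 10 mean was 7.65 times the floor, a level that rests on library 3 of dpi 10. Arg1 and S100a9 lie near the detection limit. Of 14 genes of homeostatic microglia Csf1r, the receptor microglia depend on, fell (30.2, 39 and 48.4 CPM and then 20.2, 14.1 and 28.7 CPM, Log2FC = -0.90, q = 0.023, and q = 0.098 without library 2 of dpi 42). Of 23 genes of phagocytes none had q under 0.05 in OL (median 0.16) and 2 fell in total RNA (median -0.42). Spp1, osteopontin, had 48.9, 81.3 and 58.5 CPM and then 66.8, 60.7 and 84.5 CPM (Log2FC = 0.17 ± 0.19, q = 0.66). The microglial marker Cx3cr1 was at 9.26 to 18.3 CPM in the 6 OL libraries. Of 30 lysosomal genes 3 fell (median -0.20, 1 without library 1 of dpi 10 and 11 without library 3 of dpi 42), among them Lamp2, an OL-enriched membrane protein, with 418, 426 and 379 CPM and then 268, 281 and 327 CPM (Log2FC = -0.48 ± 0.09 (SE), q = 0.0056), beside Ctsa (Log2FC = -0.41, q = 0.038) and Ctsc (Log2FC = -0.91, q = 0.026). In total RNA 4 fell (median -0.34).

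Of interferon and antigen presentation genes a small part passed, beside 3.28% of all tested genes that rose and 3.9% that fell. Of 30 interferon-stimulated genes 3 fell and 0 rose (median -0.54, against -0.75 in total RNA), and 15 had all dpi 42 libraries below all dpi 10 libraries. For the latter count too the share over all tested genes is not given here. Irf9 had 34.2, 39.3 and 34.4 CPM and then 16.3, 21.3 and 19.1 CPM (Log2FC = -0.93 ± 0.24 (SE), q = 0.024), and Irf7 had 27.6, 37.7 and 21.9 CPM and then 12, 11.7 and 17.8 CPM (Log2FC = -1.07 ± 0.30 (SE), q = 0.031). These are factors of interferon signalling, the groups were apart in both, and neither kept its call in all leave-one-out fits (q up to 0.088 without library 1 of dpi 42, and 0.11 without library 2). Unc93b1, a chaperone of endosomal Toll-like receptors, which stood among the smallest p of all falls, had 43.1, 46.3 and 55.3 CPM and then 24.9, 25.7 and 24.3 CPM (Log2FC = -0.95 ± 0.13 (SE), q = 0.00083), against 15.3 to 17.9 CPM in naive OLs. Of 20 genes of MHC class I none had q under 0.05 (median -0.08) and of 14 of class II H2-Ob fell (q = 0.025). H2-Ob had 0.427, 0 and 1.22 CPM and then no count, with a dpi 10 mean 4.92 times the floor of 3 counts. This is no bound, since 1 dpi 10 library had no count either, and q was 0.087 without library 3 of dpi 10. Of 16 complement genes 1 fell and 0 rose. Of 19 chemokine genes Cxcl12 (5.48, 12.4 and 6.81 CPM and then 48.6, 25.9 and 11.8 CPM, Log2FC = 1.81, q = 0.0095) and Cx3cl1 (Log2FC = 1.34, q = 0.045) rose, both highest in libraries 1 and 2 of dpi 42, and q was 0.086 and 0.21 without library 1. Of 20 lymphocyte genes none had q under 0.05, with a sum of 1.63 to 3.04 CPM over the 6 libraries.

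Genes of cell division had low levels on both days. Of 30 of them 4 fell and 0 rose (median -0.78, against -0.45 in total RNA). Top2a, a topoisomerase of dividing cells, had 3.65, 5.14 and 8.3 CPM and then 1.68, 1.64 and 0.978 CPM (Log2FC = -1.98 ± 0.53 (SE), q = 0.028), and Ccna2, cyclin A2, had 2.6, 4.49 and 2.78 CPM and then 0.21, 0.971 and 1.64 CPM (Log2FC = -1.81 ± 0.47 (SE), q = 0.024). Kif23 and Ccnb1, of late mitosis, had no count on dpi 42, against 0.699, 0.266 and 1.03 CPM and 0.621, 0.989 and 0 CPM on dpi 10. Kif23 was at least 5.96-fold lower. For Ccnb1 the dpi 10 mean was 4.82 times the floor of 3 counts, which is no bound since 1 dpi 10 library had no count either. None of the 4 kept its call in all leave-one-out fits, with q up to 0.098 for Top2a without library 3 of dpi 10, 0.075 for Ccna2 without library 2 of dpi 10, and 0.058 and 0.11 for Kif23 and Ccnb1 without library 1 of dpi 42.

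Few markers of other cells passed. Of 18 Schwann cell genes none had q under 0.05 (median -0.07), with sums of 1197 to 1944 CPM on dpi 10 and 1700 to 1818 CPM on dpi 42, and Prx, periaxin of peripheral myelin, was at 63.3 to 108 CPM over the 6 libraries. Of 20 neuronal genes Slc5a7, the choline transporter, fell (3.03, 4.41 and 1.14 CPM and then 0.629, 0.299 and 1.06 CPM, Log2FC = -2.11 ± 0.45 (SE), q = 0.0089), and the median was -0.04. With 1 fall the neuronal list lay near the 3.9% of all tested genes that fell. Of 20 endothelial and pericyte genes none had q under 0.05 (median -0.20). Without library 3 of dpi 42, 5 endothelial genes (median -0.51) and 4 neuronal genes fell. The part that RNA of other cells had in the changes above was not tested.

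Of 20 genes that an earlier analysis of these data had ranked highest, and that are therefore no independent choice, 2 rose and 7 fell (median -0.42). Beside Fxyd7, S100a1 rose, from 577, 619 and 609 CPM to 978, 767 and 739.9 CPM (Log2FC = 0.46 ± 0.11 (SE), q = 0.018, and q = 0.18 without library 1 of dpi 42), though with the offset for length and GC content its Log2FC was -0.05 (q = 0.9). Slc9a3r2, a scaffold protein of ion transporters, fell from 101, 73.5 and 89.3 CPM to 54.2, 41 and 47.8 CPM (Log2FC = -0.88 ± 0.14 (SE), q = 0.002), and Serpina3n, an acute-phase protease inhibitor, from 3239, 3022 and 2762 CPM to 1752, 1817 and 2099 CPM (Log2FC = -0.67 ± 0.19 (SE), q = 0.032, and q = 0.1 without library 1 of dpi 42). Both had their groups apart, and both were far above naive OLs (13.7 to 15.9 and 44.9 to 86.4 CPM) on each day. Reads of Serpina3n may be shared with close paralogs such as Serpina3c. Sqle, Lss, Klk8, Clmn and Fnbp1 were the other falls. Apod, a lipocalin made in quantity by OLs, had 14234, 13840.1 and 13426 CPM on dpi 10 and 19089, 17376 and 19413 CPM on dpi 42, with no overlap, and did not pass (Log2FC = 0.43 ± 0.15 (SE), q = 0.092). Among the remaining genes Usp30, Pcyox1l and Steap3 had Log2FC of -0.18, -0.27 and -0.42, Hrk -1.13, Il17b 1.24, Chac1 0.65, Klk9 0.04 and Serpina3c -1.47, none with q under 0.05.

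Whether a gene changed in OL otherwise than in the whole tissue was tested as the difference of both changes. It passed for 1 gene upward (0.00583%) and 10 downward (0.0583%), of which 1 (0.00583%) and 8 (0.0466%) had a difference beyond 1, while 2004 genes had an unadjusted p under 0.05. Gal was the upward gene, and Pde3b, Cmip, Kcna1, Faxc, Jph3, Eea1, Esyt1, Gpr165, Pcdh18 and Trhde were the downward ones. Faxc had a Log2FC of 0.19 in total RNA, and Kcna1 had 118, 84.9 and 77.7 CPM in total RNA on dpi 10 and 79.6, 128 and 103 CPM on dpi 42, with overlap. Without OL library 3 of dpi 10, total RNA library 3 of dpi 10 or total RNA library 2 or 3 of dpi 42, 0 genes passed at any fold. Each OL library shares its tissue with a total RNA library, which this edgeR fit does not use. With the tissue pool as a block, in an alternative chosen after seeing the data, 0 genes passed upward and 1 downward, which was Kcna1 (log2 difference -1.49, q = 0.0058), while 1824 genes had an unadjusted p under 0.05. Col1a1 did not pass this test, with -2.07 in OL and -1.95 ± 0.33 in total RNA (difference -0.12, q = 1).

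**Figure D5:**
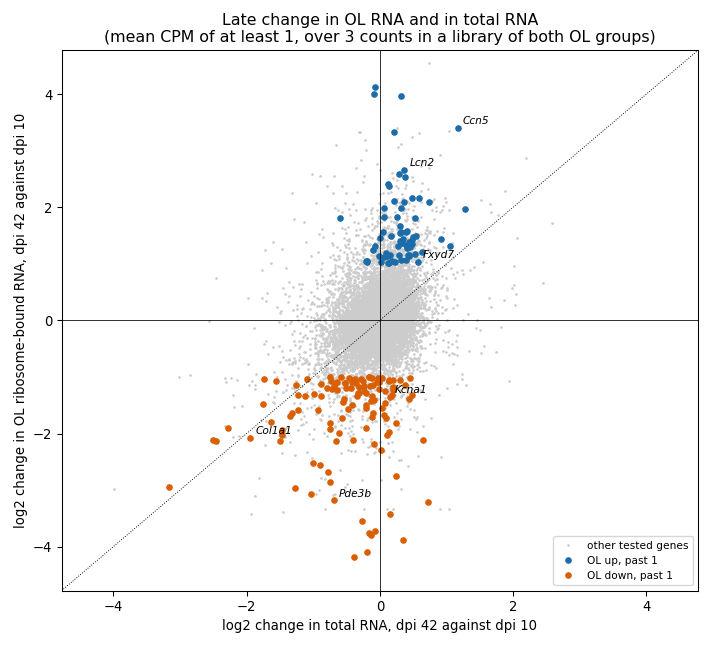
Log2FC in total RNA (horizontal axis) against Log2FC in OL (vertical axis) for genes with a mean of at least 1 CPM and over 3 counts in an OL library of both days, where each point is a gene, blue and orange points rose and fell in OL past Log2FC 1, and the dotted line marks equal change. Col1a1 lay near the line, and Kcna1 and Pde3b lay well below it.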

How the data were processed

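RNA of spinal cord tissue around the lesion was sequenced as OL translatome (anti-HA pull-down) and as total RNA, with 3 libraries of each in naive mice and on dpi 2, 10 and 42. The deposited table holds raw read counts per gene, which the authors made by aligning reads to mm10 (GRCm38.p6) and counting with HTSeq 0.10.0 after FastQC 0.10.1, per the submitters' processing notes. Coordinates, lengths and GC content are from the annotation of GRCm38, which gave a symbol for 21939 of 21965 genes and a length for 17154 of those tested. No column was left out.

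The counts were fitted in R 4.3.3 with edgeR 4.0.16 in 1 model of 8 groups over 24 libraries, with TMM scaling and genes of at least 10 counts in all. The quasi-likelihood F test gave p, and Benjamini-Hochberg adjustment over 17167 genes gave q. The contrasts were dpi 42 against dpi 10 in OL, in total RNA, and the difference of both. The script was tested on simulated counts. CPM in the text are scaled by TMM. A floor of 3 counts per library, 0.105 to 0.117 CPM in the 6 libraries, stands in for 0 in bounds and covers counting error only. Bounds set the mean of the other day against that floor. Alternatives were DESeq2 1.42.0, its size factors, library sizes alone, other filters, other sets of libraries, a replicate block, an offset for length and GC content, and leaving out each library.

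Named were the 10 rises and 10 falls of smallest p past Log2FC 1 with the libraries of both days apart, the same among OL-enriched genes, 5 and 5 that differed from total RNA, members of lists with q under 0.05, and all members of the sterol list, the list of earlier ranked genes and the defining markers, apart from a few genes that are not reported here. Sod1, Fkbp2, Hcn2, Tmod1, Ndst1, Eea1, Esyt1, Jph3, Trhde and Unc93b1 were added after their values were seen. The members, gene lists and tests were chosen with earlier results of these data known. Libraries of 1 group are separate pools of mice, but the 24 libraries came from 12 pools, each giving an OL and a total RNA library, which the model takes as independent. The pools were paired by the S number of the column names in an alternative chosen after seeing the data. Replicates of a group differed by more than sampling noise (median chi-square per gene 6.46 to 18.6 for pairs of OL libraries). Promoters are from RefSeq (GRCm38.p6).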

Additional observations from a re-analysis of the deposited data

Results flagged for a closer look

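For 11 genes the change from dpi 10 to dpi 42 differed between the OL and the total RNA libraries in the edgeR test of the difference (Benjamini-Hochberg q under 0.05, n = 3 per group and RNA kind). On the log2 scale the OL change minus the total RNA change was -1.50 for Kcna1 (q = 0.037), -2.49 for Pde3b (q = 0.028), -1.50 for Faxc (q = 0.045) and -1.17 for Jph3 (q = 0.037). It was -1.02 for Cmip (q = 0.037), -0.92 for Eea1 (q = 0.037) and -0.84 for Esyt1 (q = 0.037). For Gal (7.63), Trhde (-6.94), Gpr165 (-6.74) and Pcdh18 (-6.25) 1 of the days had no count in OL, so that the fitted size depends on the prior count and is no bound (q = 0.028, 0.037, 0.028 and 0.028). In total RNA the Log2FC of Kcna1, Faxc, Jph3, Cmip, Eea1 and Esyt1 was 0.15, 0.19, 0.46, -0.01, -0.04 and 0.06. No gene passed without OL library 3 of dpi 10, total RNA library 3 of dpi 10 or total RNA library 2 or 3 of dpi 42 (0 at any fold). With the length and GC offset 2 passed upward and 2 downward, and with OL and total RNA paired by tissue 1, Kcna1 (q = 0.0058), and the other 10 had q of 0.074 to 0.19. No group held more than 3 libraries, so single libraries were not searched for outliers.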

How the results depend on the processing

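The counts of genes past Log2FC 1 differed between the alternatives. In OL, 83 genes rose and 209 fell, with the fit of the 12 OL libraries 3 and 14, with the 6 OL libraries 3 and 18, with the 12 libraries of dpi 10 and dpi 42 135 and 241, with the DESeq2 Wald test 202 and 361, and with the length and GC offset 34 and 121. At q under 0.05 alone there were 563 and 670, and past Log2FC 0.5 339 and 522. In total RNA 0 rose and 13 fell, with DESeq2 28 fell, with the 12 libraries 28, at any fold 10 rose and 35 fell, and past 0.5 4 and 35. The difference of changes passed for 1 and 8 genes, with DESeq2 for 20 and 91, with the 12 libraries 3 fell and with the offset 2. Without the libraries whose labels conflict the counts were 32 and 116 in OL, 1 fall in total RNA and 4 downward differences. With 1 library left out, OL rises ranged from 18 to 259 and falls from 128 to 433, total RNA falls from 0 to 11, and differences from 0 to 14 upward and from 0 to 84 downward. DESeq2 size factors, library sizes alone, both other filters and the astrocyte covariate gave 57 to 90 rises and 197 to 305 falls.

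With the replicate number as a block among OL libraries 0 genes rose and 0 fell past Log2FC 1 in the edgeR test, while 1405 genes had an unadjusted p under 0.05. With OL and total RNA paired by tissue pool as a block, 0 genes passed upward and 1 downward in the difference of changes. Across days the numbers are not shown to pair the samples: deviations of libraries numbered 2 correlated at 0.36 and of those numbered 3 at 0.17, but library 3 of dpi 42 correlated best with library 1 of dpi 10 (0.44), and library 1 of dpi 42 carries no number for OL in its title.

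Among the named genes the direction turned in 1 that had been called, S100a1, to -0.049 with the length and GC offset, and in 9 that had not passed. With the offset Mvd had -0.17, Pmvk -0.013, Ebp -0.10, Spp1 -0.014 and Klk9 -0.26. With the 12 libraries of dpi 10 and dpi 42 Mvd had -0.020 and Klk9 -0.020, and with the replicate block Acat2 had 0.022 and Aqp4 -0.32. Without the libraries whose labels conflict Acat2 had 0.0018 and Aqp4 -0.15, and with the astrocyte covariate 0.030 and -0.90 (q = 0.00034). Aqp4 is itself 1 of the 18 genes whose mean forms that covariate, so its value there is no test of a change. With 1 library left out, the Log2FC ranged from -0.088 to 0.044 for Mvd, -0.056 to 0.34 for Spp1, -0.23 to 0.13 for Klk9, -0.065 to 0.057 for Fdps, -0.20 to 0.91 for Aqp4 and -0.51 to 0.97 for Chac1. The cause was not tested. Of the 143 named genes 83 stayed on their side of the threshold with the offset, 56 with the 12 OL libraries and 140 with DESeq2. With 3 pools per group, changes near q of 0.05 rested on single libraries, and genes under 3 counts per library could not be compared in size.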
